A study of Homo sapiens with 5 samples.

Results

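The transcript response of SK-MEL28 melanoma cells to cisplatin alone is described here for 1278 probes of 1228 genes. SK-MEL28 is an established human melanoma line. Cells treated with cisplatin were set against untreated cells of the same line on 3 arrays, and 2 further arrays of the study, used only where stated, set cells given cisplatin with electroporation (electric pulses at 1300 V/cm, 8 of them, each lasting 100 µs, given at 1 Hz) against untreated cells. Each array carried treated RNA in Cy5 and untreated RNA in Cy3 on spotted oligonucleotide probes, many of them for apoptosis and cancer genes. Neither the dose of the drug nor how long cells were exposed before RNA was taken is stated in the labels. They do not say either whether the 3 arrays came from separate cultures, so the tests measure the spread between arrays, which may be technical. A probe entered if it had a gene name and if, on all 3 cisplatin arrays, the treated or the untreated channel stood 2 SD or more above the local background in 0.5 or more of its spots. The 1278 members were taken from 2192 named probes (2078 genes) among 3048 probes in all.

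Cisplatin enters cells, loses its chloride ligands and binds purine bases of DNA, mostly as crosslinks between neighbouring bases of one strand. Such lesions block polymerases. They are removed mainly by nucleotide excision repair, and they activate the ATR and ATM kinases and p53, whose target genes act in cell cycle arrest, repair and cell death. Melanoma as a tumour is known for a poor response to platinum drugs.

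Every array held 12788 spots, and no spot of the cisplatin arrays was saturated. Treated RNA was above background for between 1239 and 1824 probes of a cisplatin array, and untreated RNA for between 1535 and 1683. Of the members, 1042 were above background in both channels on all 3 arrays. The treated channel missed the limit on at least 1 array for 228 members, and the untreated channel for 64. All 6 of 6 measured melanocyte markers (SOX10, TYRP1, S100B, MLANA, TYR and MITF) were members, as the label of the cells would have it. Passing the background rule does not by itself tell cell types apart, since markers of other types passed as well, 4 of 5 for epithelium, 3 of 6 for endothelium, 2 of 4 for leukocytes and 3 of 3 for fibroblasts. For every type the summed intensity overlapped between the channels. The melanocyte sum ran from 2675 to 4521 in treated RNA and from 2411 to 4150 in untreated RNA, and the epithelial sum from 39649 to 58870 in treated RNA and from 48421 to 57578 in untreated RNA. The endothelial sum ran from 1067 to 1657 in treated RNA and from 1356 to 1696 in untreated RNA, and the leukocyte sum from 558 to 848 in treated RNA and from 737 to 914 in untreated RNA. The fibroblast sum ran from 4119 to 6631 in treated RNA and from 4491 to 6749 in untreated RNA. The median log2 ratio of these markers was 0.050 for melanocytes, -0.039 for epithelium, -0.18 for endothelium, -0.13 for leukocytes and -0.045 for fibroblasts. Their part in the results was not tested. Since the cells are of 1 established melanoma line, signals of the other types' markers were not read as cells of those types. The source of these signals was not tested.

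As processed here, the ratio of treated to untreated RNA was close to 1 for nearly all members. Normalization within each array centres its ratios near 1, so the medians below are set by it. The offset of the background correction also draws ratios of dim probes toward 1. On the log2 scale, where 0 means equal amounts, the members had a median of -0.0070, with a lowest value of -0.64 and a highest of 0.52, against a median of -0.0014 over all 3048 probes. A mean ratio above 0.25 was seen for 20 members and one below -0.25 for 60, and 1 member lay above 0.5 and 2 below -0.5. The limma test, adjusted by Benjamini and Hochberg over 3048 probes, called no probe at an adjusted p of 0.05 (0 of 3048, 0%), with 0.106 as the lowest adjusted p, while 337 probes (11.1%) had an unadjusted p under 0.05. A typical member had a 95% confidence interval reaching 0.143 to either side of its ratio. All single genes below are therefore given as values that did not pass the adjusted test, and "unadjusted" marks counts made without the adjustment. Where 3 values stand together, they are those of arrays 1, 2 and 3.

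Members low in cisplatin-treated cells outnumbered members high in them. An unadjusted p under 0.05 was reached by 150 lower members (11.7%) and 103 higher members (8.06%), against 6.1% and 4.95% of all probes. All 3 arrays lay below 0 for 277 members (21.7%) and above 0 for 214 (16.7%), against 18.3% and 16.5% of all probes, while the arrays disagreed in sign for 787 members. The share above 0 on every array was thus close to that of all probes. All probes include dim ones, and of 914 named probes outside the background rule 3.06% reached an unadjusted p under 0.05. Of 219 unnamed probes that passed the same rule, 9.59% were lower and 12.3% higher at that limit. Among those 219, 43 lay below 0 and 46 above 0 on all 3 arrays, so the excess of low probes was not seen there. The members' split rests on the curve fitted through each array. With the arrays only centred on their median, the members' median was -0.11, against 0.0068 over all probes. The counts were then 261 lower and 11 higher members. The share of higher members among those at an unadjusted p under 0.05 was 40.7% with loess and 4.04% with median centring. Counts of the gene lists below at that limit stand against 6.1% lower and 4.95% higher among all probes. Among members these shares were 11.7% and 8.06%.

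How widely ratios spread with brightness depended on the offset of the background correction, which draws dim ratios toward 0. With the members cut into 4 classes of brightness, the dimmest class had an SD of 0.074 between its mean ratios and the brightest 0.16. An unadjusted p under 0.05 was reached by 39 of 320 members in the dimmest class, then by 57 of 319, by 76 of 319 and by 81 of 320 in the brightest. With an offset of 0 the dimmest and the brightest class had SDs of 0.19 and 0.17 and 29 and 25 members at that limit, and with plain subtraction SDs of 0.25 and 0.17 and 19 and 9 members, so the order did not hold without the offset. Members below 0 on all arrays numbered 88 in the third class, against 47 above, and 67 in the brightest class, against 53 above. At the edge of the background rule, 158 named probes with their lowest share of spots above background just inside the limit had 16 at an unadjusted p under 0.05, and 160 just outside it had 9.

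**Figure D1:**
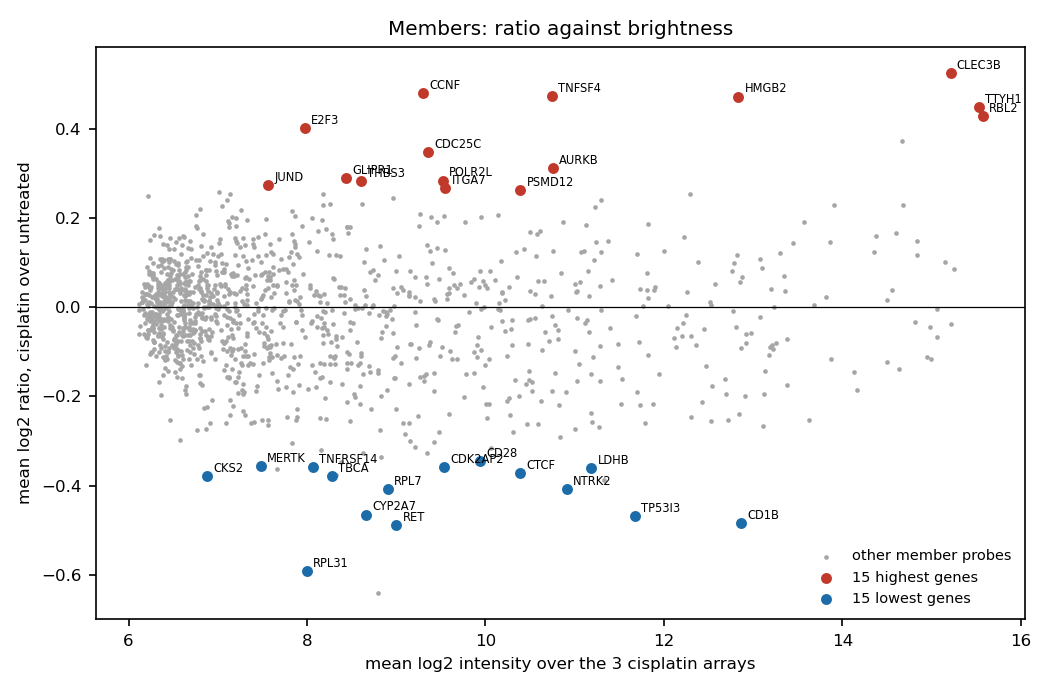
Each point is a member probe, with its mean log2 intensity over the 3 cisplatin arrays on the horizontal axis and its mean log2 ratio of cisplatin-treated over untreated cells on the vertical axis. Red and blue mark the 15 highest and 15 lowest genes with 1 sign on all arrays, each by its brightest probe; the narrow spread of dim probes was not seen with an offset of 0, and the lowest point, -0.64, is a second probe of EEF1A1.

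Genes of protein synthesis lay mostly on the low side. Of 14 members among ribosomal proteins and translation factors, 12 had a mean ratio below 0, 7 were below 0 on all 3 arrays and 6 reached an unadjusted p under 0.05 on the low side, against none on the high side. Over all probes 18.3% were below 0 on all arrays and 6.1% reached that limit on the low side. The list's median was -0.19, against -0.0014 over all probes, and lay between -0.32 and -0.14 under every alternative tried. Other lists lay low as well, with medians of -0.18 for 3 endothelial and -0.17 for 3 leukocyte members, -0.099 for metastasis genes and -0.092 for antigen presentation. RPL31, which belongs to the large ribosomal subunit, had normalized intensities of 263, 207 and 165 in cisplatin-treated cells on arrays 1, 2 and 3, against 316, 367 and 264 in untreated cells. Its log2 ratios were -0.27, -0.83 and -0.68, all below 0, with a mean of -0.59 (SE 0.11, n = 3, limma adjusted p = 0.237). RPL31 passed an adjusted p of 0.05 without background correction (0.0479) and in the authors' deposited table (0.0495). Its adjusted p ran from 0.00023 to 0.598 over all alternatives. The low end came from the fit that counts spots of 1 array as further measurements, so it overstates what 3 arrays can show.

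RPL7, from the same subunit, was measured by a pair of probes that gave like values. The brighter had normalized intensities of 560, 568 and 227 in cisplatin-treated cells and 704, 779 and 308 in untreated cells, with log2 ratios of -0.33, -0.46 and -0.44 and a mean of -0.41 (SE 0.054, limma adjusted p = 0.157). The dimmer probe had log2 ratios of -0.29, -0.24 and -0.60, with a mean of -0.38. All 6 values lay below 0. RPS3, a small-subunit protein that also has a role in DNA repair, had log2 ratios of -0.31, -0.19 and -0.25. EEF1A1, the elongation factor that brings aminoacyl-tRNA to the ribosome, had log2 ratios of -0.73, -0.19 and -0.025 with its brighter probe and -0.81, -0.65 and -0.46 with its dimmer one. The dimmer EEF1A1 probe had the lowest mean of all members, -0.64 (SE 0.084, limma adjusted p = 0.157), with array 1 lowest by both probes. Ribosomal protein genes have many processed pseudogenes, and probes could bind their transcripts as well.

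Transcripts of ribosomal proteins and elongation factors start in a run of pyrimidines, the 5′ terminal oligopyrimidine tract, through which mTOR signalling controls their translation. The 30 bases around the annotated start, 15 on each side, are shown for the 6 translation members that have a single promoter entry in RefSeq (GRCh38.p14) and an unbroken run of at least 8 C or T there, in the order of their ratios. Entries were found for 12 of the 14 members, 8 of them single, and RPL7 had none. Capitals mark the longest run of C and T, read on the gene's own strand; a run this long occurred in 13.7% of all 35116 promoter entries over the same window.
RPL31: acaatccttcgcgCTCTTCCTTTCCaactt
EEF1A1: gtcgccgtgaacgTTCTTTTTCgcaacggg
RPS3: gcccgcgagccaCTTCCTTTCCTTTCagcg
RPS6: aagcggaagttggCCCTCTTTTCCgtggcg
RPL38: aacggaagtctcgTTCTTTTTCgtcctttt
TPT1: agcggctgagtcggCCTTTTCCgcccgctc
The windows lie at chr2:101002274-101002303 on the plus strand for RPL31, chr6:73521018-73521047 on the minus strand for EEF1A1, chr11:75399503-75399532 on the plus strand for RPS3, chr9:19380222-19380251 on the minus strand for RPS6, chr17:74203663-74203692 on the plus strand for RPL38 and chr13:45341169-45341198 on the minus strand for TPT1. The run had 12, 9, 14 and 11 bases in RPL31, EEF1A1, RPS3 and RPS6, whose mean log2 ratios were -0.59, -0.32, -0.25 and -0.24. It had 9 bases in RPL38 and 8 in TPT1, whose mean log2 ratios, -0.068 and -0.024, lay near 0. Of the other members with a single entry, EIF4A1 and EIF4A2, helicases of translation initiation, had runs of only 5 and 7 bases and mean log2 ratios of -0.019 and 0.011.

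Housekeeping genes of glycolysis and the cytoskeleton were mixed, with 4 low and 2 high at an unadjusted p under 0.05 among 14 members and a median of -0.051. LDHB, the lactate dehydrogenase subunit that favours the step from lactate to pyruvate, had normalized intensities of 2486, 2424 and 1445 in cisplatin-treated cells and 3692, 2772 and 1800 in untreated cells. Its log2 ratios were -0.57, -0.19 and -0.32 (mean -0.36, SE 0.073, limma adjusted p = 0.256). GAPDH, the glyceraldehyde phosphate dehydrogenase often used as a reference gene, had log2 ratios of -0.41, -0.25 and -0.19. Array 1 was lowest for both. VIM, the intermediate filament of mesenchymal cells, had log2 ratios of -0.32, -0.042 and -0.29, and YWHAZ, a 14-3-3 adaptor, -0.46, -0.11 and -0.073. Outside the list, UGP2, which makes UDP-glucose, had log2 ratios of -0.30, -0.29 and -0.23 and was among the members with the closest arrays (mean -0.28, SE 0.034). TBCA, also outside it, a cofactor that holds beta-tubulin during folding, had normalized intensities of 251, 318 and 255 in cisplatin-treated cells and 318, 406 and 346 in untreated cells. Its log2 ratios of -0.34, -0.35 and -0.44 gave a mean of -0.38 (SE 0.037) and a limma adjusted p of 0.106, one of the lowest among all probes.

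Several regulators of mitosis and of the G1 to S step stood at the high end, as did the chromatin gene HMGB2. CCNF (cyclin F), the substrate receptor of an SCF ubiquitin ligase that acts in G2, had normalized intensities of 747, 815 and 678 in cisplatin-treated cells, against 527, 644 and 448 in untreated cells. All 12 of its spots lay above 0, and its log2 ratios were 0.50, 0.34 and 0.60, with a mean of 0.48 (95% interval 0.31 to 0.65, limma adjusted p = 0.18). HMGB2, a chromatin protein that bends DNA and binds platinum-damaged DNA, had normalized intensities of 9930, 10504 and 6121 in cisplatin-treated cells and 9109, 6929 and 3791 in untreated cells. Its log2 ratios, 0.12, 0.60 and 0.69, were clearly higher on arrays 2 and 3 than on array 1. The list of chromatin, histone and DNA methylation genes had 1 of 16 members higher and 3 lower at an unadjusted p under 0.05, with a median of -0.013. AURKB, the kinase of the chromosomal passenger complex, had log2 ratios of 0.16, 0.36 and 0.42, and CDC25C, the phosphatase that activates CDK1 at mitotic entry, 0.54, 0.19 and 0.32. For these 4 genes every array lay above 0, with means of 0.48, 0.47, 0.31 and 0.35.

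Other mitotic genes stood on the low side. Among 15 members of the G2 and M list, 4 were higher and 2 lower at an unadjusted p under 0.05, and the median was 0.028, which turned negative under 2 alternatives. CCNB1 (cyclin B1), the partner of CDK1, had normalized intensities of 87.6, 77.4 and 93.9 in cisplatin-treated cells and 107, 104 and 106 in untreated cells, with log2 ratios of -0.29, -0.43 and -0.17. Its mean of -0.30 was -0.66 with an offset of 0 and -0.81 with plain subtraction. BIRC5 (survivin), another passenger protein, had log2 ratios of -0.095, -0.085 and -0.058, and TOP2A, the topoisomerase of S phase and mitosis, -0.039, -0.28 and -0.017. Outside the list, CKS2, a small subunit that binds cyclin-dependent kinases, had log2 ratios of -0.56, -0.40 and -0.18, and CDKN3, a phosphatase that acts on those kinases, -0.27, -0.42 and -0.086. CDK2AP2, a CDK2-associated protein, had log2 ratios of -0.46, -0.25 and -0.37 (mean -0.36, SE 0.051). All arrays lay below 0 for each of these 6 genes, though TOP2A was near 0 on arrays 1 and 3.

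The G1 and S list had 3 higher and 0 lower members at an unadjusted p under 0.05 among 20, with a median of 0.0047 that turned negative under 4 alternatives. RBL2 (p130), a pocket protein that holds E2F genes silent in resting cells, was the brightest of all members and had log2 ratios of 0.45, 0.64 and 0.19. E2F3, an activating E2F factor, had log2 ratios of 0.26, 0.48 and 0.46, with 23 of its 24 spots above 0. Their means were 0.43 (SE 0.11) and 0.40 (SE 0.092). Among inhibitors and tumour suppressors, 1 of 7 members was higher and 1 lower at the same limit, NF1, which switches RAS off, at log2 ratios of 0.094, 0.24 and 0.24, and CDKN3 at the values above. NF1 lay above 0 and CDKN3 below it on every array.

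**Figure D2:**
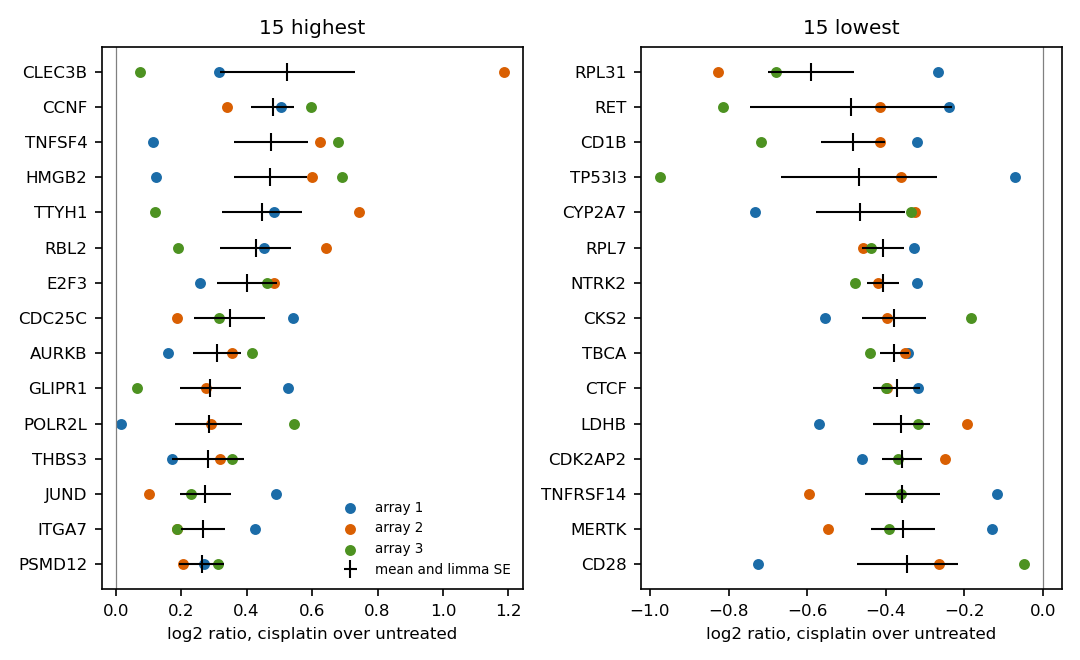
Log2 ratios of cisplatin-treated over untreated cells on the 3 arrays (coloured points) for the 15 highest and the 15 lowest member genes with 1 sign on all arrays; black bars give the mean and the limma standard error. CCNF, NTRK2, TBCA and CTCF have their arrays close together, while for CLEC3B and TP53I3 1 array stands far from the others.

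Targets of p53 showed no common direction. Of 14 members, 1 was higher and 0 lower at an unadjusted p under 0.05, and their median was 0.028. IGFBP3, an IGF-binding protein, had log2 ratios of 0.10, 0.17 and 0.12. PCNA, the sliding clamp of DNA polymerases, had log2 ratios of 0.020, 0.052 and 0.063, and GADD45A, a damage-inducible growth arrest gene, -0.057, -0.013 and 0.042; its mean of -0.010 changes sign under some alternatives. APAF1, the core of the apoptosome, had log2 ratios of -0.045, 0.19 and 0.21. TP53I3, an oxidoreductase gene that p53 activates through a repeat in its promoter, was the exception in size, with 3951, 3565 and 1530 in cisplatin-treated cells against 4153, 4575 and 3004 in untreated cells. Its log2 ratios were -0.072, -0.36 and -0.97, and the 4 spots of array 3 alone ran from -1.56 to -0.34. A dimmer probe of TP53I3 had log2 ratios of -0.18, 0.046 and 0.16, so the low mean of -0.47 (SE 0.20, limma adjusted p = 0.484) was seen with 1 of its probes. GLIPR1, which is not on the list but is known as a p53-activated gene in prostate cells, had log2 ratios of 0.53, 0.28 and 0.066.

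Mean ratios of DNA repair and damage signalling genes lay near 0 in the analysis reported. The counts of these small lists stand against 6.1% of all probes lower and 4.95% higher at an unadjusted p under 0.05. Nucleotide excision repair, the main route for cisplatin crosslinks, had 1 of 8 members higher and 0 lower at an unadjusted p under 0.05, with ratios between -0.13 and 0.16. RPA2, a subunit of the protein that covers single-stranded DNA, had log2 ratios of 0.14, 0.11 and 0.059. RAD23B, a partner of the damage sensor XPC, had log2 ratios of 0.36, 0.22 and -0.10, and ERCC2, a helicase of TFIIH, -0.25, -0.11 and -0.025. Base excision and mismatch repair had 2 of 8 members on the low side at that limit, the glycosylase NTHL1 at log2 ratios of -0.0049, -0.14 and -0.22 and the ligase LIG3 at log2 ratios of -0.16, -0.035 and -0.12. Double-strand break repair also had 2 of 5 on the low side, both of the DNA-dependent protein kinase. XRCC6, its Ku70 subunit, had log2 ratios of -0.11, -0.20 and -0.043, and PRKDC, its catalytic subunit, -0.15, -0.12 and -0.065. LIG4, which seals the ends in that pathway, had log2 ratios of 0.44, 0.061 and -0.046, with array 1 far above the others. TIMELESS, a replication fork protein, had log2 ratios of -0.13, -0.084 and -0.21 and was the 1 of 6 damage signalling members at that limit. All means of these repair members lay within 0.16 of 0 as reported. Over the alternatives they reached farther on both sides, to -0.43 for TIMELESS, -0.34 for XRCC6, 0.25 for LIG4 and 0.29 for RAD23B.

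The mitochondrial death genes were balanced, with 1 higher and 1 lower of 12 members at an unadjusted p under 0.05 and a median of 0.0092. ENDOG, a nuclease released from mitochondria, had log2 ratios of 0.003, -0.34 and -0.28, and BAG4, a chaperone cofactor that restrains death receptors, -0.30, 0.088 and -0.26. Outside the list, PDCD5, a protein that moves to the nucleus in apoptotic cells, had log2 ratios of -0.26, -0.17 and -0.30 (mean -0.24, SE 0.038). Caspases, their adaptors and inhibitors had 2 of 8 members lower and none higher at that limit, with ratios between -0.12 and 0.11. Death receptors and the TNF superfamily had wider values, 4 higher and 3 lower of 15 members. TNFSF4 (OX40 ligand), a costimulator of T cells, had normalized intensities of 1725, 2994 and 1608 in cisplatin-treated cells and 1592, 1941 and 1003 in untreated cells, with log2 ratios of 0.12, 0.63 and 0.68. TNFRSF13B (TACI), a receptor of B cell growth signals, had log2 ratios of 0.15, 0.26 and 0.24. TNFRSF14, the receptor for LIGHT, had log2 ratios of -0.12, -0.60 and -0.36 on the low side, and NGFR, the low-affinity neurotrophin receptor, -0.18, -0.25 and -0.28. Both of the high genes and both of the low ones kept their sign on every array.

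In the NF-kB list, 1 of 8 members was higher at an unadjusted p under 0.05 and none lower. That member, TNFAIP3 (A20), is a ubiquitin-editing enzyme that ends NF-kB signalling. It had normalized intensities of 3084, 2830 and 2312 in cisplatin-treated cells and 2613, 2445 and 1920 in untreated cells, and its log2 ratios of 0.24, 0.21 and 0.27 were close together, with 23 of 24 spots above 0. The mean was 0.24 (SE 0.03, n = 3, limma adjusted p = 0.157). NFKB2, which gives the p52 subunit, had log2 ratios of -0.32, -0.040 and -0.12.

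Stress genes lay on both sides of 0. Heat shock and integrated stress response genes had 3 of 11 members higher and 2 lower at an unadjusted p under 0.05, with a median of 0.048. HSPA1B, an inducible HSP70, had log2 ratios of 0.21, 0.059 and 0.35 with its brighter probe and 0.19, 0.24 and -0.010 with its dimmer one; it has a near-identical copy, HSPA1A, that the probes could also bind. ATF4, the main factor of the integrated stress response, had log2 ratios of -0.21, -0.18 and -0.18, and HSPA5 (BiP), the chaperone of the endoplasmic reticulum, -0.22, -0.25 and 0.021. Immediate early genes had 2 of 12 members higher and none lower. JUND, an AP-1 subunit, had log2 ratios of 0.49, 0.10 and 0.23. SGK1, a stress and hormone-induced kinase, had log2 ratios of -0.63, -0.43 and 0.30, with array 3 opposite in sign to the others. DUSP4, a phosphatase of MAP kinases, had log2 ratios of -0.26, -0.083 and -0.12.

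Redox and drug-handling genes had 2 of 17 members higher and 2 lower at an unadjusted p under 0.05. NQO1, a quinone reductase controlled by NRF2, had log2 ratios of -0.60, -0.49 and 0.048, with array 3 near 0. GSTP1, a glutathione transferase linked to platinum resistance, had log2 ratios of -0.28, -0.19 and -0.13 and lay below 0 on every array, while GSTM3, another transferase, had log2 ratios of 0.29, 0.17 and 0.085 and lay above it. MVP, the major vault protein first known from drug-resistant cells, had log2 ratios of -0.22, 0.49 and 0.42. In the separate cytochrome P450 list, CYP2A7, a gene with a close paralog, CYP2A6, that its probe may also bind, had log2 ratios of -0.73, -0.33 and -0.34 (mean -0.46, SE 0.11). The glutathione transferases thus differed in sign among themselves.

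Receptor tyrosine kinases held some of the lowest ratios. Of 16 members, 3 were lower and 1 higher at an unadjusted p under 0.05, 11 had a mean below 0, and the median was -0.026. Among all members 11.7% were lower and 8.06% higher at that limit, and among all probes 6.1% and 4.95%. NTRK2 (TrkB), the receptor for brain-derived neurotrophic factor, had normalized intensities of 2295, 1992 and 1026 in cisplatin-treated cells and 2867, 2665 and 1430 in untreated cells. All 12 of 12 spots lay below 0. Its log2 ratios were -0.32, -0.42 and -0.48, with a mean of -0.41 (SE 0.04, limma adjusted p = 0.106), and NTRK2, TBCA and 1 unnamed probe shared the lowest adjusted p of the array. The value rests on the brightest of 3 NTRK2 probes. The dimmer ones had log2 ratios of -0.12, -0.15 and 0.011, and -0.076, 0.0031 and 0.088. RET, the receptor of the GDNF family, had log2 ratios of -0.24, -0.41 and -0.81, MERTK, a receptor that mediates uptake of dying cells, -0.13, -0.55 and -0.39, and TIE1, an endothelial receptor, -0.30, -0.31 and -0.076. RET had all arrays below 0 but a wide error (mean -0.49, SE 0.26). Its cisplatin arrays differed widely, and the fit also uses the spread between the 2 combination arrays.

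Growth factors had 2 of 14 members lower and 0 higher at an unadjusted p under 0.05, with a median of -0.022. EGF had log2 ratios of -0.38, -0.25 and -0.13, IGF1 -0.037, -0.42 and -0.14, and PDGFB, the B chain of platelet-derived growth factor, 0.062, -0.51 and -0.26. The RAS, MAPK and PI3K list was even, with 3 higher and 3 lower of 23 members. MTOR, the kinase that links nutrients to protein synthesis, was not above background in the untreated channel of any array. It thus became a member by its treated channel alone, a route that favours high ratios. Only a bound on the mean of all 3 arrays can be given, for the background correction used and without an error. It put treated cells at least 1.17-fold higher (mean log2 signal 6.35 in treated cells and 6.10 in untreated cells, limma adjusted p = 0.256). Bounds of this kind set the treated mean against the higher of the untreated signal and the lowest signal above background on each array. Over the alternatives the MTOR log2 ratio ran from 0.20 to 1.14, lowest without array 1 and highest with plain subtraction. The bound does not extend to these alternatives. RHEB, the small GTPase that activates mTOR, had log2 ratios of -0.18, -0.12 and -0.21, and PIK3CD, the delta catalytic subunit of PI3K, -0.074, -0.48 and -0.25. In the WNT list, 2 of 13 members were higher and 2 lower. The receptors FZD2 and FZD5 had log2 ratios of 0.11, 0.26 and 0.16, and 0.24, 0.11 and 0.12, while SFRP1, a secreted WNT antagonist, had log2 ratios of -0.13, -0.17 and -0.16. The TGF-beta and BMP list had 8 members with ratios between -0.091 and 0.11, none at an unadjusted p under 0.05 and none with 1 sign on every array.

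**Figure D3:**
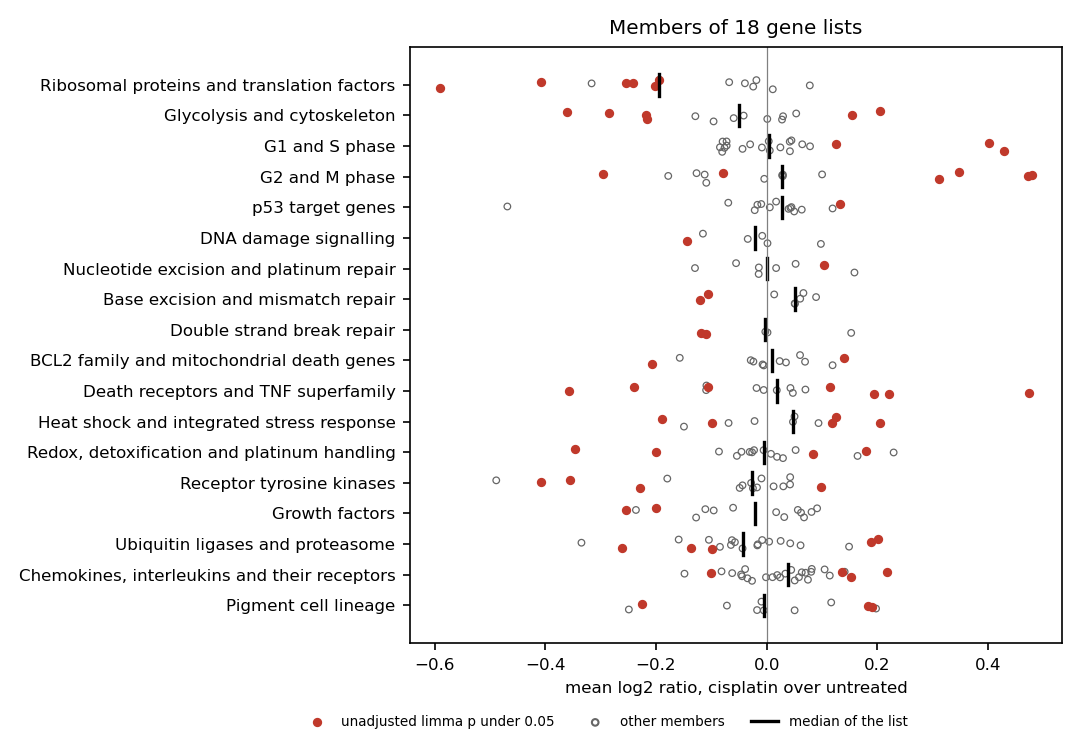
Mean log2 ratios of cisplatin-treated over untreated cells for the members of 18 gene lists, 1 point per gene by its brightest probe; filled red points had an unadjusted limma p under 0.05 and black bars mark list medians. The translation list has its median at -0.19 with 6 red points on the low side, and the other 17 lists drawn have medians within 0.06 of 0. The figure shows a selection of the 39 lists. Those not drawn include the endothelial and leukocyte markers, with medians of -0.18 and -0.17.

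Matrix and adhesion genes included the highest member of all. CLEC3B (tetranectin), a plasminogen-binding protein, had normalized intensities of 56397, 49025 and 34220 in cisplatin-treated cells and 45331, 21559 and 32496 in untreated cells. Its log2 ratios were 0.32, 1.19 and 0.075, so the mean of 0.52 (SE 0.21, limma adjusted p = 0.442) rests largely on array 2. Among the other matrix proteases and inhibitors, CTSG, a protease of neutrophil granules, had log2 ratios of -0.13, -0.29 and -0.33, and TIMP2, an inhibitor of metalloproteinases, -0.26, -0.15 and -0.23; 1 of 16 members was higher and 3 lower at an unadjusted p under 0.05. THBS3, a thrombospondin, had log2 ratios of 0.17, 0.32 and 0.36. Of the laminin chains, LAMB1 had log2 ratios of 0.10, 0.19 and 0.15 on the high side and LAMB3 -0.27, -0.17 and -0.23 on the low side. ITGA7, a laminin receptor chain, had log2 ratios of 0.43, 0.19 and 0.19, and ITGB4, the beta chain of the hemidesmosome, -0.60, -0.14 and -0.030, with array 1 lowest. TGM2, a transglutaminase that crosslinks matrix proteins, had log2 ratios of 0.17, 0.27 and 0.28.

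Metastasis suppressors and promoters had 2 of 12 members lower and 0 higher at an unadjusted p under 0.05, with a median of -0.099. CD82, a tetraspanin that suppresses metastasis, had log2 ratios of -0.37, -0.21 and -0.22. All 3 arrays lay below 0 for 4 of these 12 members and above 0 for 1, against 18.3% and 16.5% of all probes. Ubiquitin ligase and proteasome genes had 3 lower and 2 higher of 21 members and a median of -0.044. The HECT ligases WWP1 and WWP2 had log2 ratios of -0.085, -0.28 and -0.64, and -0.11, -0.31 and -0.36. On the high side stood CUL4A, a cullin of the ligase that handles ultraviolet damage, at log2 ratios of 0.16, 0.19 and 0.22, PSMA2, a subunit of the proteasome core, at log2 ratios of 0.22, 0.091 and 0.29, and, outside the list, PSMD12, a subunit of the proteasome cap, at log2 ratios of 0.27, 0.21 and 0.31.

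Probes of immune genes lay on both sides of 0. Chemokines, interleukins and their receptors had 8 of 28 members above 0 on all 3 arrays and 2 below, against 16.5% and 18.3% of all probes. At an unadjusted p under 0.05, 3 were higher and 1 lower, and the median was 0.039. IL1RN, the antagonist of the IL-1 receptor, had log2 ratios of 0.22, 0.14 and 0.29. Antigen presentation had 2 of 7 members lower and 1 higher. CD1B, which presents lipids to T cells, had normalized intensities of 6527, 8488 and 4492 in cisplatin-treated cells and 8147, 11305 and 7385 in untreated cells, with log2 ratios of -0.32, -0.41 and -0.72 (mean -0.48, SE 0.082, limma adjusted p = 0.193). HLA-F had log2 ratios of -0.30, -0.25 and -0.29 and HLA-G 0.23, 0.26 and 0.10; these class I genes are alike enough in sequence that probes could bind more than 1 of them. The T cell genes CD28, a costimulatory receptor, and CD8A, a coreceptor, had log2 ratios of -0.72, -0.26 and -0.047, and -0.094, -0.41 and -0.48. All values of CD1B, HLA-F, CD28 and CD8A lay below 0.

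Pigment lineage genes split. Of 11 members, 2 were higher and 1 lower at an unadjusted p under 0.05. On every array 4 lay above 0 and 2 below, against 16.5% and 18.3% of all probes. MITF, the master factor of melanocytes, had normalized intensities of 982, 929 and 302 in cisplatin-treated cells and 901, 899 and 232 in untreated cells, with log2 ratios of 0.13, 0.048 and 0.38. TYRP1, a melanin-forming enzyme, had log2 ratios of 0.27, 0.13 and 0.16, and EDNRB, the endothelin receptor of melanoblasts, 0.13, 0.029 and 0.43. On the low side, GPNMB, a melanosome glycoprotein, had log2 ratios of -0.24, -0.36 and -0.069, and S100B, a calcium-binding protein used as a melanoma marker, -0.20, -0.44 and -0.11. MLANA, a melanosome protein, had log2 ratios of -0.046, -0.22 and 0.048. Outside the list, RAB38, a GTPase that carries pigment enzymes to melanosomes, had log2 ratios of -0.32, -0.18 and -0.28 (mean -0.26, SE 0.04). MITF and TYRP1 had means of 0.18 and 0.19, both with a limma adjusted p above 0.3.

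Further genes were named for a small p, for the size of their ratio or as list members. CTCF, the insulator protein of chromatin loops, had normalized intensities of 1277, 1164 and 1101 in cisplatin-treated cells and 1593, 1533 and 1453 in untreated cells. Its log2 ratios of -0.32, -0.40 and -0.40 gave a mean of -0.37 (SE 0.06, limma adjusted p = 0.187). PTPN9, a tyrosine phosphatase of secretory vesicles, had log2 ratios of -0.26, -0.33 and -0.17, and MAGED2, a protein of the MAGE family, -0.17, -0.19 and -0.23. ARHGEF1, a guanine nucleotide exchange factor, had log2 ratios of 0.28, 0.19 and 0.29. TTYH1, a member of the tweety membrane proteins, had log2 ratios of 0.48, 0.74 and 0.12, and POLR2L, a shared subunit of the RNA polymerases, 0.017, 0.29 and 0.54. NR0B2 (SHP), an inhibitory nuclear receptor, had log2 ratios of -0.037, -0.38 and -0.47. CTCF, PTPN9 and MAGED2 lay below 0 on all arrays, and ARHGEF1, TTYH1 and POLR2L above it, POLR2L on array 1 by only 0.017.

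The 3 arrays shared part of their pattern. Across the 1278 members Pearson's r was 0.32 between arrays 1 and 2, 0.18 between arrays 1 and 3 and 0.46 between arrays 2 and 3 (Spearman's rho 0.27, 0.19 and 0.40). These are descriptions across probes, which share their dyes and array positions and are not independent. Array 1, the widest in its ratios (SD 0.190, against 0.161 and 0.169), also had the fewest probes above background in treated RNA. Whether this bears on single genes was not tested.

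**Figure D4:**
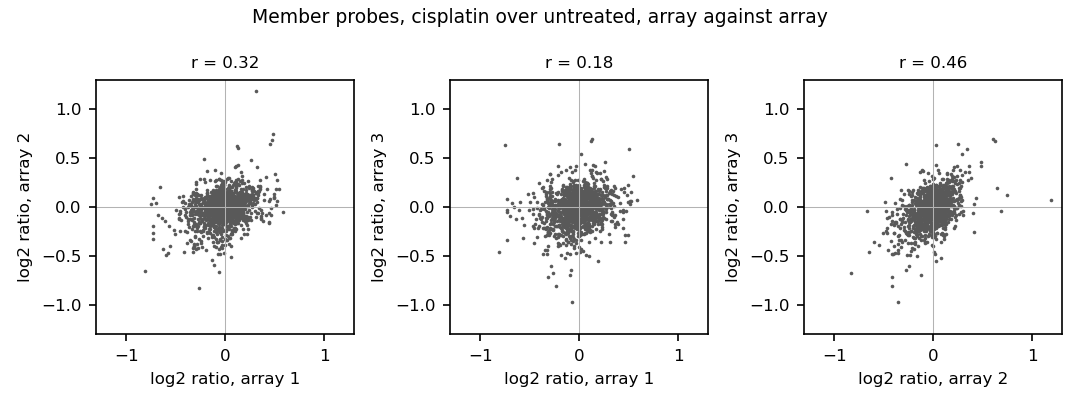
Each point is a member probe, with its log2 ratio of cisplatin-treated over untreated cells on 1 array against that on another. The cloud is widest along the diagonal for arrays 2 and 3 (r = 0.46) and nearly round for arrays 1 and 3 (r = 0.18).

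The widest range between arrays was that of the brightest of 4 probes of H4C16, a histone H4 gene. This probe had 330, 813 and 1275 in cisplatin-treated cells and 553, 797 and 818 in untreated cells. Its log2 ratios were -0.75, 0.030 and 0.64. Its spots agreed within each array, from -0.90 to -0.58 on array 1, from -0.045 to 0.083 on array 2 and from 0.50 to 0.73 on array 3. The spots thus did not overlap between arrays, and its mean of -0.026 (SE 0.24) lies within the spots of array 2 only. The dimmer H4C16 probes ranged by only 0.16, 0.22 and 0.17 over the arrays, so the wide range was seen with 1 probe. Histone H4 genes code for the same protein, and a probe may bind several of them. CLEC3B, SGK1, TP53I3 and IGFALS, the acid-labile subunit that holds IGF in serum, came next, and IGFALS had log2 ratios of -0.66, 0.21 and 0.0042. The narrowest ranges among members past 0.25 in size were those of RAB40A, HLA-F, UGP2, CTCF and ARHGEF1. RAB40A, a RAB-like substrate receptor of ubiquitin ligases, had log2 ratios of -0.24, -0.26 and -0.28, with a mean of -0.26, but an SE of 0.064, again set in part by the combination arrays.

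**Figure D5:**
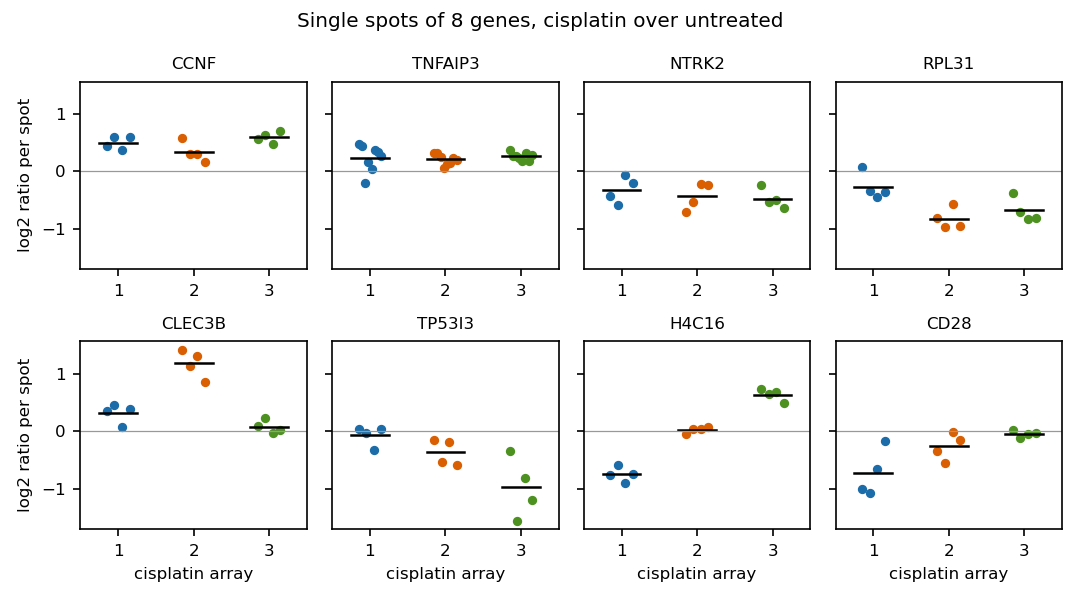
Single-spot log2 ratios of cisplatin-treated over untreated cells for 8 genes on the 3 cisplatin arrays, each gene by its brightest probe, with the array mean as a black line. CCNF and NTRK2 keep every spot on 1 side of 0, while the H4C16 spots form 3 separate groups from -0.75 on array 1 to 0.64 on array 3.

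Probes of 1 gene agreed only in part. Of 39 genes with 2 or more member probes, 17 had all probes on 1 side of 0 and 22 did not, the median gap between the highest and the lowest probe was 0.12, and the brightest pair of probes had r = 0.38 (rho 0.33) over these genes. PRLR, the prolactin receptor, had log2 ratios of -0.041, 0.27 and 0.38 with its brightest probe but -0.31, -0.40 and -0.27, and -0.12, -0.36 and -0.47 with the others. The 6 probes listed for CGB7, one of a set of near-identical chorionic gonadotropin beta genes, had means between -0.39 and 0.16, and its brightest had log2 ratios of -0.50, -0.031 and 0.047. For PRLR, CGB7, NTRK2 and TP53I3 the mean thus depended on the probe, while both RPL7 probes and both EEF1A1 probes lay on the low side on every array.

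Cells given cisplatin with electroporation were also measured against untreated cells of the same line, and the values of some members are set side by side here. The difference between the treatments, tested within the same limma model, passed an adjusted p of 0.05 for 0 of 3048 probes (0%), with 0.994 as the lowest, and had an unadjusted p under 0.05 for 107 (3.51%), 77 of them members. NTRK2 averaged a log2 ratio of -0.41 with cisplatin alone and read -0.43 and -0.40 on the 2 combination arrays. RPL7 averaged a log2 ratio of -0.41 and read -0.31 and -0.53, and CCNF averaged 0.48 and read 0.44 and 0.21. Treated RNA was in Cy5 on every array of both treatments. In such like values a dye preference of the probe cannot be told apart from a shared response. HMGB2 averaged a log2 ratio of 0.47 with cisplatin alone, above the combination arrays at 0.056 and -0.056, a difference of 0.47 (SE 0.18, limma adjusted p = 0.994). AURKB differed by a log2 ratio of 0.36 (SE 0.12), with 0.091 and -0.19 on the combination arrays. TNFRSF14 averaged a log2 ratio of -0.36 with cisplatin alone and read -0.77 and -0.98 on the combination arrays, and NQO1 averaged -0.35 and read -0.97 and -0.99. CD1B averaged a log2 ratio of -0.48 and read -0.20 and -0.061. In the authors' deposited table the same difference passed for 20 probes. None of the differences given here passed the adjusted test in the scanner data, and the smallest unadjusted p among the genes of this paragraph was 0.016, for TNFRSF14.

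Of 42 genes often followed after platinum damage or in melanoma, 33 were on the array and 25 were members. The 8 others, not above background on all 3 arrays, were CDKN1A, BAX, BBC3, DDB2, ERCC1, BCL2, MCL1 and HMOX1, so the ratio of the CDK inhibitor p21 (CDKN1A) and of the p53-induced death genes BAX and BBC3 could not be read at this signal. Another 9 genes of that set were not analysed here.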

How the data were processed

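Two-colour spotted arrays measured RNA of cisplatin-treated (Cy5) and untreated (Cy3) SK-MEL28 cells, with dyes never exchanged, so a dye preference of a probe cannot be told apart from the treatment. RNA was amplified with an amino allyl kit and then dye-coupled, per the labels. The deposited scanner files hold raw foreground and local background intensity per spot, not normalized, per the file headers. Channel 1 was read as Cy3 and channel 2 as Cy5, as numbered in the labels. The authors' deposited value table holds 1 value per probe that reads as a log2 ratio normalized by the authors, with scale, direction, centring and method unstated. Set against the scanner ratios it had r of 0.92, 0.94 and 0.96 on the 3 cisplatin arrays with slopes of 1.21, 1.25 and 1.24, which fits log2 values of treated over untreated. Its medians there were 0.004, -0.0275 and -0.0005, and its centring stays unknown. It listed 2560 probes and served as an alternative.

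Median foregrounds were corrected with limma 3.58.1 (normexp, offset 50) in R 4.3.3 and normalized by loess (span 0.3) within arrays; the offset draws ratios of dim probes toward 0. Spots were averaged per probe (4 spots for 2900 probes, 8 for 147, 12 for 1). One limma model (lmFit, eBayes) over all 5 arrays, with a mean per treatment, left 3 residual degrees of freedom plus a prior of 2.47. Tests were two-sided with Benjamini-Hochberg adjustment over 3048 probes. The number of arrays limits the precision. Groups came from the sample titles. The replicate numbers of the treatments were not taken as pairs, because the labels state no shared batch. The deviations of same-numbered arrays from their treatment means correlated at 0.32 and 0.089 over only 2 numbers. These values cannot decide on pairing, since the deviations of the 2 combination arrays are mirror images of each other.

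Names came from the platform's gene identifiers, which named 2192 probes with 1 gene and left 856 without. A gene stands by its brightest member probe. Named genes were selected from the 15 highest, the 15 lowest, the 15 with the smallest p, up to 4 per gene list for 39 lists, a set of 42 genes, genes with several probes, and the 5 widest, 5 narrowest and 5 brightest members. RPS6, RPL38, TPT1, EIF4A1 and EIF4A2 were added for their start sequences after their values were seen. Members and lists were chosen with earlier results of these data known. Scanner, software, flags, spot positions and scan dates were not given in the sources, so no block for slide or scan was tried. The procedure was tested on simulated data. Alternatives covered background, normalization, spots, variance, weights, dim probes, the replicate block, left-out arrays and the background rule; only the first 3 listed spots was added after seeing the data.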

Additional observations from a re-analysis of the deposited data

How the results depend on the processing

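The count of probes past an adjusted p of 0.05 was 0 in the analysis reported and in 17 of 20 alternatives. It was 4 without background correction and 4 in the authors' deposited table, in each case a probe of RPL31, the dimmer probe of EEF1A1 and 2 unnamed probes, and 132 when single spots entered with the array as a random block, which counts spots of 1 array as further measurements. Members higher at an unadjusted p under 0.05, 103 as reported, numbered 50 with normexp offset 0, 24 with plain subtraction, 11 with median centring, 61 in the authors' table and 65 with dim probes left out. Members lower, 150 as reported, numbered 58 with offset 0, 31 with plain subtraction, 261 with median centring and 90 in the authors' table. Median centring also gave 50 members above 0 and 456 below 0 on all arrays. All probes at that limit, 337 as reported, numbered 200 in the authors' table and 213 with dim probes left out, where fewer probes were tested. The difference between treatments had 20 probes past an adjusted p of 0.05 in the authors' table. The cause of these shifts was otherwise not tested.

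Leaving out 1 cisplatin array in turn gave 0 adjusted calls each time, 232 to 260 probes at an unadjusted p under 0.05, 66 to 82 higher members, the lowest without array 2, and 104 to 126 lower members. Counts of 1 sign on all 3 arrays cannot be given without an array. Across members, cisplatin array 1 correlated best with the same-numbered combination array (r = 0.60), above each r between cisplatin arrays (0.18 to 0.46), while cisplatin array 2 had r = 0.32 with combination array 2; with 2 shared numbers and no label for a batch this is a hint from the data, not the design. With the replicate number as a random block (correlation 0.18), 0 probes passed and 342 had an unadjusted p under 0.05, 106 higher and 149 lower members. The median of the translation list kept its sign under all alternatives, as did 13 other lists; 25 of 39 changed sign in at least 1, 15 of them with median centring.

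Of 116 named genes, 34 had a mean over 1.5 times as far from 0 with offset 0, 34 with plain subtraction, 23 without background correction, 41 with median centring and, of 114, 18 in the authors' table. Among the named genes, sign changes were seen for means near 0 and for arrays that disagreed. GADD45A stood at 0.0021 with offset 0, 0.0143 with the median of spots and 0.0139 with single spots. TPT1 stood at 0.0029 with the median of spots, 0.0066 with array weights and 0.0135 with the first 3 spots. EIF4A2 stood at -0.0076 with median centring, -0.047 with the median of spots, -0.071 in the authors' table and -0.036 with the first 3 spots, and EIF4A1 at 0.013 with array weights. PCNA stood at -0.0055 with mean foregrounds. H4C16 stood at 0.0051 after scaling between arrays and 0.054 with array weights. With 1 cisplatin array left out in turn, the mean ran from -0.035 to 0.014 for GADD45A, from -0.15 to 0.11 for TPT1, from -0.065 to 0.059 for EIF4A1, from -0.079 to 0.064 for EIF4A2, from -0.36 to 0.33 for H4C16, from -0.27 to 0.0082 for CGB7, from -0.33 to 0.11 for IGFALS, from -0.11 to 0.018 for RPL38 and from -0.13 to 0.0011 for MLANA. Signal over background limits the 228 members whose treated channel was dim on some array.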
